A study of Mus musculus and Homo sapiens with 18 samples.

Results

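The genes described here are 50 cell cycle and DNA replication genes, listed by symbol and chosen with earlier results of these data known. They comprise 5 genes of G1 (the D-type cyclins and their kinases), 20 genes of the G1/S transition and S phase, and 25 mitotic genes. All 50 were present in each of the 3 count tables, by mouse symbol in the 46882 genes of the lens table and the 54838 genes of the NLPC table and by upper-case symbol in the 60880 genes of the human table. Quaking (Qki), encoded by Qk in mouse and QKI in human, is an RNA-binding protein, and RNA-seq was used to ask what its deletion changes in lens tissue and lens-like cells. Each system had 3 control and 3 deletion libraries, and each member was compared within its own system.

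The lens libraries came from lenses dissected at P17-19. The Qk-iCKO mice were Nestin-CreERT2; QkL/L. The library titles call the control (Ctrl) mice WT. They were taken here as Nestin-CreERT2; QkL/+, which would carry the same Cre and 1 floxed Qk allele. The paper also lists Nestin-CreERT2; Qk+/+ and QkL/L littermates among its controls. It does not say which of these genotypes were sequenced. Tamoxifen was given to the mice at P7 and P8. The Cre is driven by a Nestin promoter, so that deletion is limited to the cells in which this promoter has been active. NLPCs are lens progenitor-like cells differentiated from mouse neural stem cells with Noggin for 6 days and then bFGF, BMP4 and BMP7 for 12 days. The neural stem cells came from P1 brains of Nestin-CreERT2; QkL/L mice, and Qk was deleted in culture with 4-hydroxytamoxifen to give the Qk-/- cells that were compared with WT cells. HLE-B3 is an immortalized human lens epithelial cell line. In this line QKI was targeted with CRISPR-Cas9 delivered by lentivirus, and the infected cells were selected with puromycin. The study describes its cell line experiments as independent biological replicates, and the labels add nothing on how the NLPC and HLE-B3 replicates were grown.

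Cells enter the cycle when D-type cyclins with Cdk4 or Cdk6, and then E-type cyclins with Cdk2, phosphorylate the retinoblastoma family and free E2F factors to transcribe the S-phase genes. Origins are licensed by ORC, Cdc6 and Cdt1, which load the Mcm2-7 helicase, and Cdc45 and the GINS complex activate it. Mitotic genes, such as cyclin B, Cdk1, the Aurora kinases and the spindle motors, are transcribed later, in G2, under the MuvB complex with B-Myb and Foxm1. In the lens, cells of the epithelium divide, and cells that become fibres leave the cycle with high levels of CDK inhibitors.

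The promoters of 5 members are shown because the E2F and MuvB factors act through short elements in front of these genes. RefSeq promoters (GRCm38.p6) were matched for 39 of the 50 members, 4 of them with more than 1 promoter. Kif11, Top2a, Aurka and Mad2l1 were the mitotic members with the lowest p in the NLPCs among those with a promoter, and Mcm7, chosen after its values were seen, is an S-phase member with E2F letters upstream in the first of its promoters. Each line gives the 250 bases before the annotated start, 5′ to 3′ on the strand of the gene. Capitals mark the letters TTTGAA or TTCAAA (the CHR element, bound by MuvB), CCAAT or ATTGG (the CCAAT box) and, in Mcm7, the E2F letters.
Kif11, chr19:37376132-37376381, plus strand: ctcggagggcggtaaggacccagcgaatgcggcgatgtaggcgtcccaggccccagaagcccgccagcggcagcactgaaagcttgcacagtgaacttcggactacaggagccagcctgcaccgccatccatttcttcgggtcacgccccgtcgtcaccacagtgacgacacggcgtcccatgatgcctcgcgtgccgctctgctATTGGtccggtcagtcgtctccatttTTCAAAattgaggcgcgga
Top2a, chr11:99024190-99024439, minus strand: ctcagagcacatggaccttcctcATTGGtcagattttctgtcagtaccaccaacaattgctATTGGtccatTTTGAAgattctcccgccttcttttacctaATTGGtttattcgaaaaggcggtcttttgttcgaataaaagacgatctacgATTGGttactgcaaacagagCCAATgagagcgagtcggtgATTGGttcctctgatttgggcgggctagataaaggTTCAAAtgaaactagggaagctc
Aurka, chr2:172370571-172370820, minus strand: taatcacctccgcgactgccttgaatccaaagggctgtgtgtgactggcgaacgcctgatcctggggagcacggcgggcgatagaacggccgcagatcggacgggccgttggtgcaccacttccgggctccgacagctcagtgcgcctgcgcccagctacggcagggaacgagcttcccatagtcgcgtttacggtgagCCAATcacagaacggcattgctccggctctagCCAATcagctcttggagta
Mad2l1, chr6:66534971-66535220, plus strand: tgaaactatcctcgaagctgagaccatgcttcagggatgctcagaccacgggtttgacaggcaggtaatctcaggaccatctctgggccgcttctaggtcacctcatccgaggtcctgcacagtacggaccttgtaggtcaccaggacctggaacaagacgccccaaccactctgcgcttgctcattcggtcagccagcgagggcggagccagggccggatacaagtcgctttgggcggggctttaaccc
Mcm7, chr5:138171884-138172133, minus strand: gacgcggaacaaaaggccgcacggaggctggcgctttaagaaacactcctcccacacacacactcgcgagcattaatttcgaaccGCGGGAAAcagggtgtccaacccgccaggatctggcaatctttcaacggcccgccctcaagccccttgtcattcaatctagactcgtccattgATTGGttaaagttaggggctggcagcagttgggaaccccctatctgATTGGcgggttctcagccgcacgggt
In Kif11 the CHR letters began 19 bases before the start and the CCAAT letters 45 bases before it. Top2a held CHR letters at 23 and 179 bases and 6 CCAAT matches. Aurka held 2 CCAAT matches, with its CHR letters 32 bases after the start and so outside the stretch shown. Mad2l1 held none of the elements. In Mcm7 the E2F letters GCGGGAAA began 165 bases before the start, with CCAAT letters at 72 and 26 bases. Over promoters of 300 bases, the E2F letters (TTTGGCGC, TTTCCCGC, TTTCGCGC or TTTGCCGC, either strand) were present in 8 of 16 S-phase members (50%) and 1 of 20 mitotic members (5%), against 2.6% of all 27025 genes with a promoter. The CHR letters were present in 15 of 20 mitotic members (75%) and 2 of 16 S-phase members (12.5%), against 20.2% of all genes, and the CCAAT letters in 90% of mitotic and 68.8% of S-phase members against 41.1%. Of the 3 G1 members with a promoter, 0 held E2F or CHR letters and 1 held CCAAT. These are matches of letters and not binding sites. The other 11 members, Ccnd1, Ccnd2, Ccne2, Mcm4, Gins1, Gins2, Ccna2, Cdc25c, Aurkb, Kif20a and Tpx2, had no match in the promoter table used here.

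Library depth was lowest in the lens, with 10319320 to 16425331 counts, followed by NLPCs, with 28154202 to 68243360, and was highest in HLE-B3 cells, with 69190864 to 81384471. The targeted gene was lower in QKI KO cells by a log2 fold change of -1.34 (adjusted p = 1.85e-11), reached -0.31 in the lens (adjusted p = 0.2) and was higher, at 0.41 (adjusted p = 0.027), in the NLPC libraries labelled Qk-/-. The loxP sites of the mouse allele flank exon 2 of Qk, and counts over a whole gene do not show which exons were read. The NLPC direction of these counts goes against the label, so directions below are those of the libraries labelled Qk-/-. The first Qk-iCKO lens library had the lowest mean correlation with the other lens libraries (0.877) and a TMM factor of 1.47 against 0.889 to 0.962 in the others, and the second library labelled Qk-/- had the lowest in NLPCs (0.892). All 8 myeloid markers tested were higher in the Qk-iCKO lenses, with a summed level of 114 to 153 CPM (counts over the TMM-scaled library size) against 2.23 to 4.93 CPM in Ctrl. Of the 9 lens fibre markers tested, 1 fell, the aquaporin gene Mip, and their sum was 147453 to 281392 CPM against 313227 to 332238 CPM. The lens epithelium markers overlapped, at 184 to 243 CPM in Qk-iCKO lenses against 166 to 217 CPM in Ctrl, with 1 of 6 tested higher. The summed fibre markers were between 0.808 and 4.74 CPM in NLPCs, in which the αA-crystallin gene Cryaa had at most 18 counts. The gene of αB-crystallin, by which the paper identifies NLPCs, was not among the markers. Neural stem cell and astrocyte markers summed to 6106 to 6726 CPM in WT and 4258 to 4838 CPM in the libraries labelled Qk-/-. Fibroblast and mural markers summed to 68.7 to 79.2 CPM and 33.3 to 35.4 CPM. Neuron and oligodendrocyte markers summed to 111 to 114 CPM and 71.4 to 76.2 CPM. Lens epithelium markers had a higher sum in the libraries labelled Qk-/-, at 192 to 210 CPM against 105 to 125 CPM in WT, with 1 of 3 tested higher. In HLE-B3 cells CRYAA was at 0 in every library, and the lens epithelium markers summed to 690.1 to 745.6 CPM in WT and 1095 to 1201 CPM in QKI KO. In the same libraries the fibroblast and mural markers summed to 3944 to 4024 CPM in WT and 1984 to 2300 CPM in QKI KO, with 3 of 6 tested lower and 1 higher, and the neural stem cell and astrocyte markers to 121 to 132 CPM and 57.5 to 61.7 CPM, with 2 of 3 lower. The part of these markers in the changes of the members was not tested. In bulk RNA, fewer cycling cells and less RNA per cell cannot be told apart.

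The level of the members differed between the systems before any deletion effect. Per kilobase of exon, the median control level over the 50 members was 0.515 FPKM in the lens, 8.03 FPKM in NLPCs and 27.0 FPKM in HLE-B3 cells, and 40, 1 and 2 members, respectively, were under 1 FPKM. These 3 scales come from separately normalised tables. In Ctrl lenses the highest levels were those of Ccnd1 (12.8 FPKM) and Cdk4 (9.38 FPKM), both of G1, while Mki67, the classical proliferation marker, was at 0.866 FPKM. In WT NLPCs Cdk4 (45.6 FPKM) and Mki67 (43.2 FPKM) were highest, and in WT HLE-B3 cells TOP2A (137 FPKM) and TPX2 (90.5 FPKM). The median member had a mean of 29.2 counts per library in the lens, against 1363 in NLPCs and 7750 in HLE-B3 cells. The SE of a member's log2 fold change was 0.13 to 0.54, 0.078 to 0.42 and 0.047 to 0.31, respectively.

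**Figure D1:**
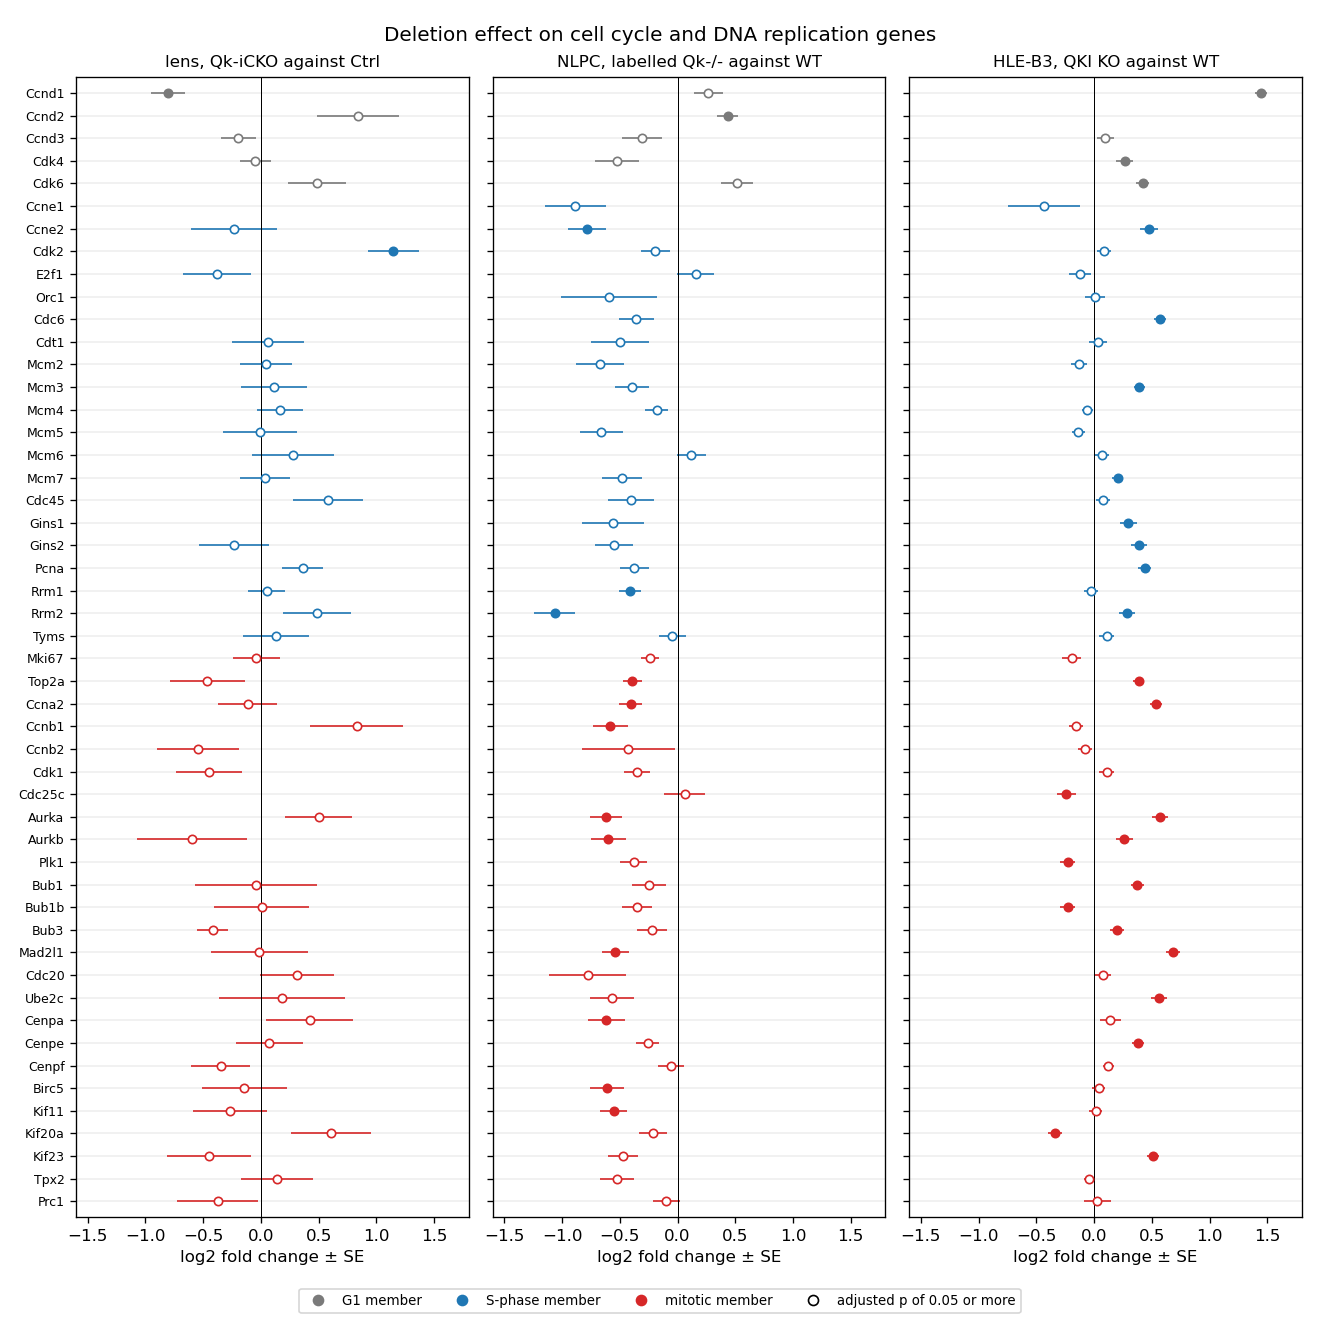
Log2 fold change of each member, deletion against control, with its SE from edgeR (horizontal bars), in lens, NLPC and HLE-B3 libraries (3 against 3 in each). Filled points passed adjusted p of 0.05: 2 in the lens, 13 in NLPCs (12 of them lower) and 25 in HLE-B3 cells (21 of them higher), and members with no point were not tested.

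In the lens, deletion of Qk changed 2 of the 44 members that passed the filter on low counts. Cdk2, the kinase of the G1/S transition, rose and Ccnd1, cyclin D1, fell (edgeR quasi-likelihood test with Benjamini-Hochberg adjustment over all genes). That is 1 member higher where 8.38% of the 12201 genes tested were higher, and 1 lower where 3.88% were lower. At an unadjusted p under 0.05 there were 2 higher (17.3% of all genes) and 2 lower (11.4%), and 6 of the 44 did not overlap between the groups, against 35.3% of all genes. The S-phase members had a median log2 fold change of 0.09 and the mitotic members of -0.05, beside 0.01 for all genes, with 23 of the 44 above 0.

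Ccnd1 (chr7:144929931-144939925, minus strand, GRCm38) was at 62.6, 58.6 and 59.1 CPM in Ctrl replicates 1, 2 and 3 and at 38.5, 35.3 and 29.5 CPM in the Qk-iCKO replicates in the same order. Every Qk-iCKO library lay below every Ctrl library. The log2 fold change was -0.80 ± 0.14 (SE, n = 3 and 3, adjusted p = 0.0129). Genes on the opposite strand overlap 23.4% of its exon bases. Ccnd2, cyclin D2, was at 38.7, 37.1 and 49.0 CPM in Ctrl and at 122, 49.5 and 51.6 CPM in Qk-iCKO lenses. The groups did not overlap, but the first Qk-iCKO library, which also had the lowest summed fibre markers, stood far above the others, and the difference of 0.84 ± 0.36 did not pass (adjusted p = 0.17). Cdk6, a kinase partner of the D-type cyclins, was at 6.86, 5.48 and 7.19 CPM and at 11.2, 6.09 and 9.98 CPM, with overlapping groups (adjusted p = 0.25). Cdk4 and Ccnd3 had log2 fold changes of -0.05 and -0.20, neither past the threshold.

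Cdk2 (chr10:128697939-128705031, minus strand) was at 2.15, 2.21 and 1.85 CPM in Ctrl lenses and at 5.14, 4.25 and 4.33 CPM in Qk-iCKO lenses. Every Qk-iCKO library lay above every Ctrl library. The log2 fold change was 1.15 ± 0.22 (adjusted p = 0.017), a 2.21-fold rise. It was the only call among the 16 S-phase members tested, and its partner cyclin gene Ccne2 stood at -0.24 (adjusted p = 0.725). The summed myeloid markers were higher in the same 3 Qk-iCKO libraries, and their part in the changes of Cdk2 and Ccnd1 was not tested. Both calls were lost when any Ctrl library was left out (adjusted p = 0.0529 to 0.0659 for Ccnd1 and 0.0585 to 0.0745 for Cdk2), at log2 fold changes of -0.79 to -0.83 and 1.06 to 1.19, and both held without each Qk-iCKO library.

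Among the other lens S-phase members, the helicase subunit Mcm2 was at 11.5, 11.1 and 8.63 CPM in Ctrl and 7.72, 11.7 and 12.9 CPM in Qk-iCKO lenses. Pcna, the sliding clamp of the replicative polymerases, was at 6.12, 7.90 and 6.30 CPM and at 8.82, 9.66 and 7.66 CPM. Cdc45, which joins the helicase, was at 1.65, 1.57 and 1.23 CPM and at 2.39, 1.64 and 2.62 CPM. In all 3 genes the groups overlapped, and their log2 fold changes of 0.04, 0.36 and 0.58 did not pass (adjusted p = 0.925, 0.229 and 0.252).

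The mitotic members gave 0 calls of 23 in the lens, and 1 at an unadjusted p under 0.05, the spindle checkpoint gene Bub3. Bub3 was at 16.6, 16.6 and 16.0 CPM in Ctrl and at 11.3, 13.7 and 11.9 CPM in Qk-iCKO lenses, without overlap (-0.42 ± 0.13, adjusted p = 0.0911). DESeq2 also called 0 mitotic members. Mki67 was at 10.1, 9.46 and 6.58 CPM and at 7.65, 8.50 and 9.27 CPM, with the Qk-iCKO libraries inside the Ctrl range. Top2a, the topoisomerase of mitotic chromosomes, was at 8.19, 10.3 and 6.44 CPM and at 3.49, 7.63 and 7.15 CPM, the lowest in the first Qk-iCKO library. Cdk1, the mitotic kinase, was at 2.32, 3.56 and 2.33 CPM and at 1.96, 2.22 and 1.81 CPM, so that the groups did not overlap (-0.45 ± 0.29, adjusted p = 0.342). Ccnb1, cyclin B1, was at 0.827, 1.35 and 0.753 CPM and at 1.16, 1.74 and 2.42 CPM. The kinesin gene Kif20a was at 1.90, 1.28 and 0.959 CPM and at 1.78, 2.03 and 2.52 CPM. Both cyclin B1 and Kif20a overlapped between the groups. Ccne1, Orc1, Cdc6, Gins1, Cdc25c and Plk1 did not pass the filter, with 2 to 16 counts per library. With every gene of at least 1 count tested, their log2 fold changes were -0.39 to 0.91, with SE of 0.54 to 0.83, and 0 of these 6 passed (lowest adjusted p 0.586, and 0 at an unadjusted p under 0.05).

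**Figure D2:**
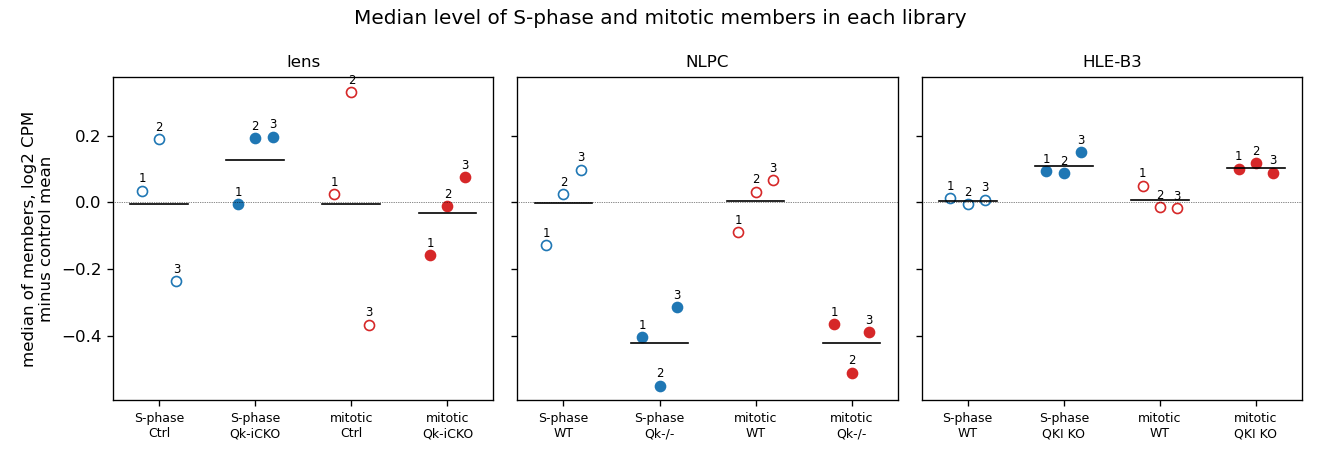
Median over the S-phase and over the mitotic members of each member's log2 CPM minus its control mean, for each library (points, numbered by replicate) and the mean of each group of 3 (lines), over the members tested. Control and deletion libraries overlap in the lens for both classes, those labelled Qk-/- lie below WT in NLPCs at -0.31 to -0.55, and the QKI KO libraries lie above WT in HLE-B3 cells at 0.087 to 0.15.

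In NLPCs, 12 of the 50 members, all of which were tested, fell in the libraries labelled Qk-/- and 1 rose. Ribonucleotide reductase (Rrm1 and Rrm2), cyclin E2 (Ccne2) and 9 mitotic genes, among them the Aurora kinases and the kinesin Kif11, fell by 1.31-fold to 2.09-fold, and Ccnd2 rose. The share called lower was 24%, against 5.96% of the 20371 genes tested, and the share called higher was 2%, against 4.74%. At an unadjusted p under 0.05, 30 members were lower (14% of all genes) and 2 higher (12.4%), and 34 of 50 did not overlap between the groups (35.2%). Of all members, 44 had a log2 fold change below 0. The median was -0.45 in the S-phase and -0.41 in the mitotic members, beside 0.04 for all genes. The neural stem cell and astrocyte markers, of which 3 of 6 were lower and 1 higher, had a lower sum in the same libraries, and their part in the change of the members was not tested.

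These counts depended on the libraries and on the fit. Without the second library labelled Qk-/-, the shallowest and least like the others, 21 members were lower and 3 higher, and all 13 calls held. Of the 21127 genes tested in that fit, 2069 were lower and 1728 higher, against 1214 and 965 of 20371 with every library. Leaving out any other library left 0 to 5 lower and 0 higher, with all 13 calls lost without the third WT library. These fits tested 22097 to 22541 genes and called 337 to 827 of them lower and 344 to 595 higher. Deviations of same-numbered libraries correlated at 0.123 to 0.320 in this system, but differently numbered ones reached 0.232, so a pairing is not settled. With the replicate block 7 members were lower, beside 1040 of all 20371 genes: Ccne2, Ccna2, Ccnb1, Aurka, Aurkb, Cenpa and Birc5 lost their calls and Mcm2 (adjusted p = 0.048) and Mcm5 (adjusted p = 0.0482) gained them. No member that was called changed its direction under any of these.

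Ccnd2 was at 298, 253 and 283 CPM in WT and at 356, 387 and 382 CPM in the libraries labelled Qk-/-. All 3 lay above WT, at a log2 fold change of 0.43 ± 0.090 (adjusted p = 0.0213). Cdk6 moved the same way without passing the test, at 26.1, 21.9 and 26.1 CPM in WT and 32.3, 40.8 and 32.8 CPM (0.51 ± 0.14, adjusted p = 0.052). Cdk4 was at 133, 160 and 152 CPM and at 115, 71.5 and 122.7 CPM, without overlap (-0.52 ± 0.19, adjusted p = 0.13). The second library labelled Qk-/- was lowest by far in Cdk4. Ccnd1 and Ccnd3 had log2 fold changes of 0.27 and -0.31 and were not called.

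Of the 20 S-phase members, 3 were lower and 11 were lower at an unadjusted p under 0.05. Rrm2 (chr12:24708241-24714146, plus strand), the regulated subunit of ribonucleotide reductase that supplies dNTPs in S phase, was at 22.4, 23.2 and 25.3 CPM in WT and at 14.4, 9.82 and 9.60 CPM in the libraries labelled Qk-/-. It fell by 1.06 on the log2 scale (SE 0.18, adjusted p = 0.00836), the lowest adjusted p among the members. Rrm1, the large subunit, was at 77.3, 91.1 and 88.9 CPM and at 61.4, 65.6 and 66.1 CPM, and fell by 0.41 (SE 0.096, adjusted p = 0.0312). Neither subunit overlapped between the groups. Ccne2 was at 10.03, 11.1 and 12.3 CPM and at 6.68, 7.16 and 5.59 CPM and fell by 0.78 (SE 0.16, adjusted p = 0.0214), or adjusted p = 0.0508 with the replicate block.

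The licensing and helicase genes were mostly lower without passing the test. Mcm2 was at 43.4, 49.7 and 57.7 CPM in WT and at 33.6, 22.0 and 39.0 CPM in the libraries labelled Qk-/- (-0.67 ± 0.21, adjusted p = 0.0837). Pcna was at 62.4, 74.7 and 74.3 CPM and at 53.7, 48.0 and 61.3 CPM (-0.37 ± 0.12, adjusted p = 0.096). Neither gene overlapped between the groups, and both were lowest in the second library labelled Qk-/-. The other Mcm genes had log2 fold changes of -0.39 (Mcm3), -0.18 (Mcm4), -0.66 (Mcm5), 0.12 (Mcm6) and -0.48 (Mcm7). E2f1, Mcm6, Ccnd1, Ccnd2, Cdk6 and Cdc25c were the 6 members above 0. Genes on the opposite strand overlap 67.3% of the exon bases of Gins2 (-0.55, adjusted p = 0.0754), and its value is uncertain.

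Of the 25 mitotic members, 9 were lower and 18 were lower at an unadjusted p under 0.05. Kif11 (chr19:37376403-37421859, plus strand), the kinesin that pushes spindle poles apart, was at 44.4, 50.0 and 47.6 CPM in WT and at 28.6, 34.9 and 33.3 CPM in the libraries labelled Qk-/-. It fell by 0.55 on the log2 scale (SE 0.11, adjusted p = 0.0201). Top2a was at 285, 310 and 311 CPM and at 220, 241 and 229 CPM and fell by 0.39 (SE 0.081, adjusted p = 0.0214). Aurka, the kinase of the spindle poles, was at 18.2, 21.3 and 23.3 CPM and at 14.6, 13.7 and 12.6 CPM and fell by 0.62 (SE 0.14, adjusted p = 0.0254). None of these genes overlapped between the groups.

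The other 6 mitotic members that fell were the cyclins Ccna2 (-0.41) and Ccnb1 (-0.58), Aurkb and its partner in the chromosome passenger complex Birc5 (-0.60 and -0.61), the checkpoint gene Mad2l1 (-0.54) and the centromeric histone gene Cenpa (-0.62), at adjusted p of 0.0279 to 0.047. Mki67 was at 419, 426 and 459 CPM in WT and at 367, 377 and 365 CPM in the libraries labelled Qk-/-, without overlap, and its difference of -0.23 ± 0.078 did not pass (adjusted p = 0.0981). Cdk1 was at 22.0, 22.1 and 24.9 CPM and at 16.9, 18.2 and 18.9 CPM (-0.35 ± 0.11, adjusted p = 0.0925). The checkpoint and APC/C genes Bub1, Bub1b, Bub3, Cdc20 and Ube2c were between -0.22 and -0.78, and 0 of these 5 passed in edgeR, 3 having an unadjusted p under 0.05. DESeq2 called 24 members lower, beside 1951 of all 20371 genes, with Mki67, Pcna, Mcm2, Plk1 and Ube2c among those it added.

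**Figure D3:**
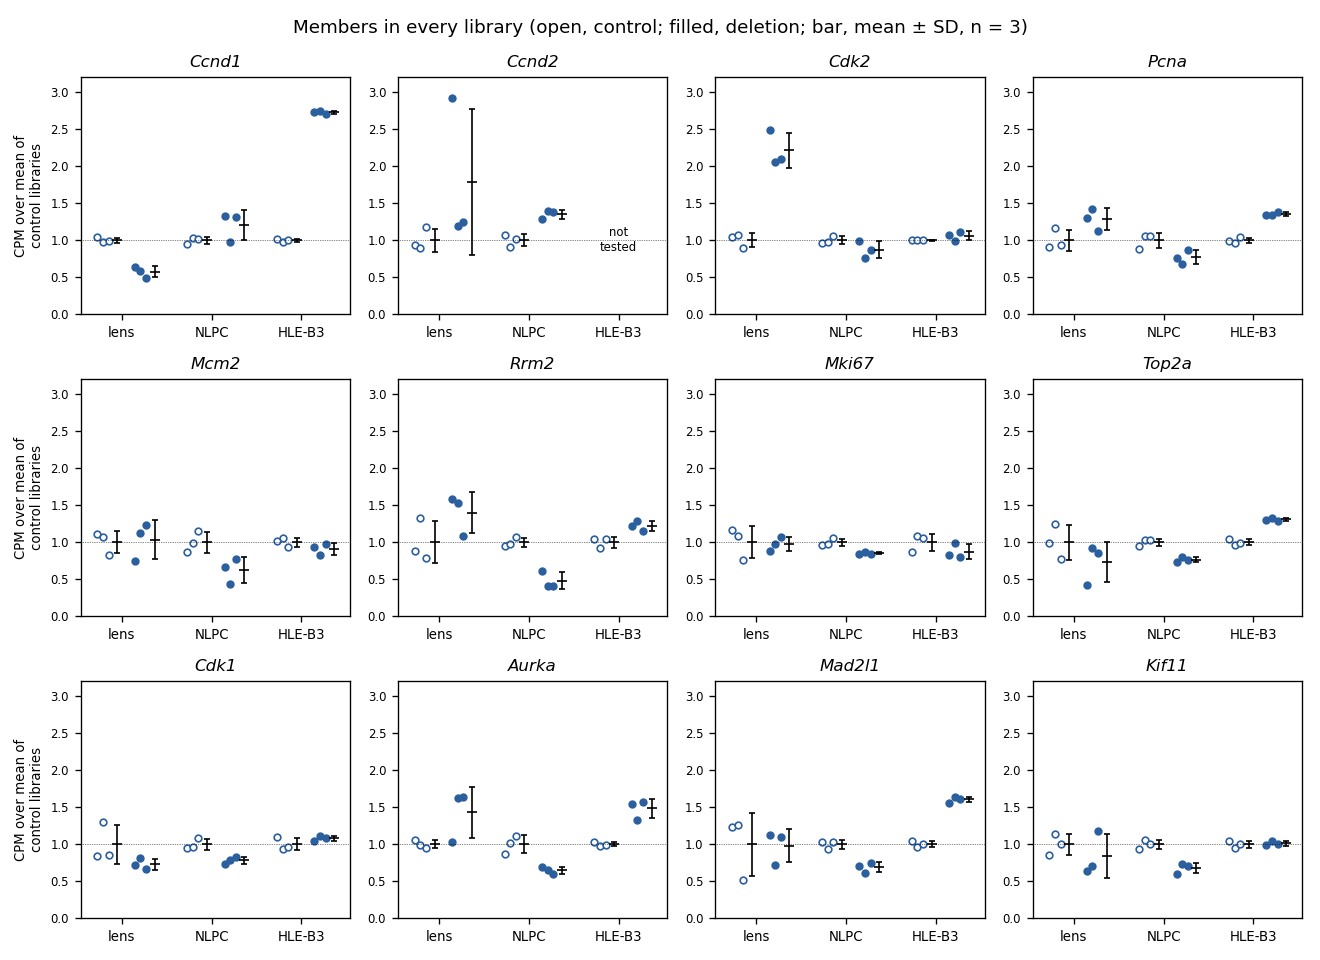
CPM of 12 members in each library over the mean of the control libraries of the same system (open points, control; filled points, deletion; bars, mean ± SD, n = 3). Ccnd1 lies below its controls in the Qk-iCKO lenses and far above them in QKI KO cells, Cdk2 lies above its controls in the Qk-iCKO lenses, and Rrm2 and Kif11 lie below theirs in the NLPC libraries labelled Qk-/-.

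In HLE-B3 cells, 21 of the 49 members tested rose in QKI KO cells and 4 fell, most of them by a small amount. Cyclin D1 rose 2.72-fold, and the other 20 rose by 1.15-fold to 1.60-fold. The share called higher was 42.9%, against 17% of the 19049 genes tested, and the share called lower was 8.16%, against 16.3%. At an unadjusted p under 0.05 these were 22 members (20.8% of all genes) and 7 members (20.6%), and 29 of 49 did not overlap between the groups (44.6%). The S-phase members had a median log2 fold change of 0.08 and the mitotic members of 0.11, beside -0.02 for all genes. A change of at least 1.5-fold left 2 members higher and 0 lower. CCND2 was at 0 to 0.15 CPM and was not tested.

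CCND1 (chr11:69455924-69469242, plus strand, GRCh37) was at 84.4, 81.8 and 84.2 CPM in WT and at 227, 229 and 226 CPM in QKI KO cells. The groups lay far apart, at a log2 fold change of 1.45 ± 0.054 (adjusted p = 8.66e-12). Its kinase partner CDK6 was at 359, 345 and 382 CPM and at 480, 518 and 457 CPM (0.42 ± 0.059, adjusted p = 3.11e-05). CDK4 was at 57.8, 53.5 and 50.9 CPM and at 66.2, 60.6 and 67.9 CPM (0.26 ± 0.070, adjusted p = 0.00767). Both kinases rose without overlap, and genes on the opposite strand overlap 44.2% of the exon bases of CDK4. CCND3 stood at 0.10 ± 0.074 and was not called.

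Of the 20 S-phase members, 8 rose and 0 fell in edgeR (1 lower, MCM5, at an unadjusted p under 0.05) or in DESeq2. CDC6, which loads the helicase, was at 235, 225 and 245 CPM in WT and at 349, 344 and 353 CPM in QKI KO cells (0.57 ± 0.053, adjusted p = 4.14e-07). MCM3 was at 271, 262 and 264 CPM and at 352, 350 and 345 CPM (0.39 ± 0.050, adjusted p = 1.18e-05). PCNA was at 82.2, 80.1 and 85.9 CPM and at 111, 111 and 114 CPM (0.44 ± 0.058, adjusted p = 1.8e-05). None of these overlapped between the groups, and the other S-phase members called higher were CCNE2, MCM7, GINS1, GINS2 and RRM2, at log2 fold changes of 0.20 to 0.48. Genes on the opposite strand overlap 37.1% of the exon bases of CCNE2 and 47.9% of those of TYMS, which was not called. Of the helicase subunits, MCM3 and MCM7 were called. MCM2, at 107, 111 and 98.9 CPM in WT and 98.9, 87.1 and 103 CPM in QKI KO cells, had overlapping groups (-0.13 ± 0.071, adjusted p = 0.173), and MCM4, MCM5 and MCM6 were at -0.06, -0.14 and 0.07. CCNE1 was at 1.35, 1.33 and 2.395 CPM and at 1.15, 1.14 and 1.46 CPM, and its value of -0.43 ± 0.31, the lowest among the members, did not pass (adjusted p = 0.33).

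The mitotic members gave 10 higher and 4 lower of 25. MAD2L1, of the spindle checkpoint, was at 53.4, 49.5 and 51.4 CPM in WT and at 80.4, 84.0 and 83.2 CPM in QKI KO cells (0.68 ± 0.061, adjusted p = 2.94e-07). CCNA2, cyclin A2, was at 164, 159 and 159 CPM and at 236, 225 and 239 CPM (0.54 ± 0.054, adjusted p = 8.81e-07). KIF23, a kinesin of cytokinesis, was at 324, 302 and 321 CPM and at 448, 448 and 451 CPM (0.51 ± 0.051, adjusted p = 8.81e-07). TOP2A was at 911, 844 and 870 CPM and at 1139, 1165 and 1130 CPM (0.39 ± 0.047, adjusted p = 7.35e-06). These 4 genes rose without overlap, as did AURKA, AURKB, BUB1, BUB3, UBE2C and CENPE, at 0.20 to 0.57.

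The 4 mitotic members that fell were the phosphatase gene CDC25C (-0.24), PLK1 (-0.23), BUB1B (-0.23) and KIF20A (-0.34), and less the median log2 fold change of the 50 nearest genes they stood at 0.08, -0.12, 0.02 and -0.06. MKI67 was at 798, 993 and 971 CPM in WT and at 762, 909 and 743 CPM in QKI KO cells, with overlap (-0.19 ± 0.081, adjusted p = 0.0796). CDK1 was at 105, 90.2 and 92.9 CPM and at 99.8, 107 and 104 CPM (0.11 ± 0.066, adjusted p = 0.233). Leaving out each library in turn gave 19 to 22 members higher and 1 to 4 lower, the fewest lower without the second WT library, and CDC25C, PLK1, BUB1B, BUB3 and AURKB were the calls lost in at least 1 of these fits. Over all genes these fits called 2609 to 3285 higher and 2325 to 2902 lower. Other genes on the same strand overlap 57.6% of the exon bases of PRC1 (0.03 ± 0.12), which was at 8.71 to 9.62 CPM in QKI KO cells, and its value is uncertain.

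Several members that moved in HLE-B3 cells lay in stretches of the chromosome whose other genes moved the same way. For each member, the median log2 fold change of the 50 tested genes nearest to it was taken. It was 0.40 to 0.45 around CCNA2, MAD2L1 and CENPE on chromosome 4, 0.32 to 0.33 around AURKA and UBE2C on chromosome 20, 0.32 around MCM3 on chromosome 6, and 0.30 and 0.28 around CDC6 and TOP2A on chromosome 17. It was -0.26 to -0.32 around CCNB1, CDC25C and KIF20A on chromosome 5. Around CCND1 it was 0.04, and around KIF23 -0.05, PCNA -0.01 and CDK6 0.15. The part of copy number in these values was not tested. Less the median of its neighbours, MAD2L1 stood at 0.23, AURKA at 0.25, TOP2A at 0.11, MCM3 at 0.08, CENPE at -0.01, PCNA at 0.45 and CCND1 at 1.40. Of the 21 members called higher 1 changed sign by this, CENPE, of the 4 called lower 2, CDC25C and BUB1B, and of the 24 not called 9. The class medians were 0.14 for the S-phase and 0.15 for the mitotic members.

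**Figure D4:**
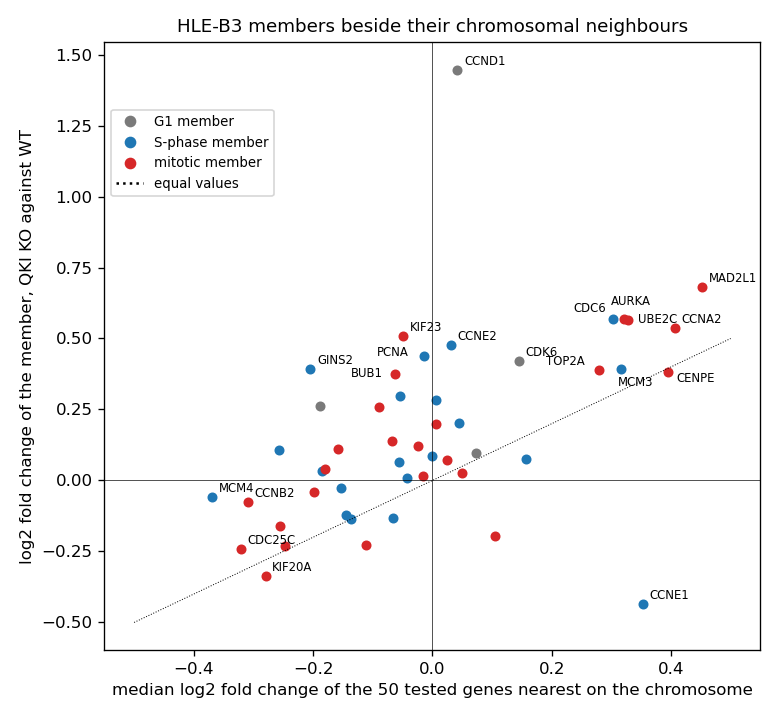
Log2 fold change of each HLE-B3 member, QKI KO against WT (vertical axis), beside the median log2 fold change of the 50 tested genes nearest to it on the chromosome (horizontal axis), with the dotted line at equal values. MAD2L1, CCNA2 and CENPE have neighbours at 0.40 to 0.45, while CCND1 stands at 1.45 with neighbours at 0.04.

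CDK inhibitors hold cyclin-dependent kinases inactive, and 6 of the 7 genes were tested in each system. In the lens 2 rose (33.3%, against 8.38% of all genes) and 1 fell (16.7%, against 3.88%). In NLPCs 0 rose and 1 fell (16.7%, against 5.96%). In HLE-B3 cells 3 rose (50%, against 17%) and 1 fell, a share of 16.7% beside 16.3% of all genes. Cdkn1a, which encodes p21, was at 0.248, 0.213 and 0.205 CPM in Ctrl lenses and at 8.76, 2.70 and 5.04 CPM in Qk-iCKO lenses, with 9 counts in all Ctrl libraries and 221 in all Qk-iCKO libraries. The ratio of the summed levels was 27.3, with a 95% counting interval of 14.1 to 60.6 that covers counting error only, and the test passed (adjusted p = 0.00288). Cdkn2b, p15, was at 0.496, 0.285 and 0.411 CPM in Ctrl and at 2.57, 1.93 and 1.31 CPM in Qk-iCKO lenses (2.29 ± 0.41, adjusted p = 0.0123). Cdkn1c, p57, an inhibitor of differentiating fibres, was at 150, 160 and 224 CPM and at 68.6, 92.2 and 107 CPM (-0.99 ± 0.23, adjusted p = 0.0322). All 3 groups of values were free of overlap, and Cdkn1a alone held its call without each Ctrl library. Cdkn1c also lost it without the second Qk-iCKO library (adjusted p = 0.0726), and genes on the opposite strand overlap 30.7% of the exon bases of Cdkn1c. The summed myeloid markers were higher in the same 3 libraries, and their part in these changes was not tested. Cdkn1b, Cdkn2c and Cdkn2d had log2 fold changes of -0.33, -0.10 and 0.36 in the lens without passing, and Cdkn2a, at 0 to 0.37 CPM, was not tested.

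In NLPCs Cdkn2b was at 5.17, 5.26 and 5.35 CPM in WT and at 2.10, 1.501 and 2.09 CPM in the libraries labelled Qk-/- (-1.47 ± 0.24, adjusted p = 0.00775). The groups did not overlap. Cdkn1a (0.47), Cdkn1b (-0.26), Cdkn2a (-0.27), Cdkn2c (0.09) and Cdkn2d (0.06) did not pass there, and Cdkn1c was at 0 to 0.27 CPM. In HLE-B3 cells CDKN1A was at 84.6, 83.4 and 82.1 CPM in WT and at 49.7, 42.9 and 50.2 CPM in QKI KO cells and fell by 0.81 (SE 0.069, adjusted p = 1.66e-07). CDKN2A (0.26), CDKN2B (0.21) and CDKN2D (0.65) rose there at adjusted p of 0.0045 to 0.0323, CDKN1B and CDKN2C did not pass (adjusted p = 0.984 and 0.731), and CDKN1C was not tested.

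**Figure D5:**
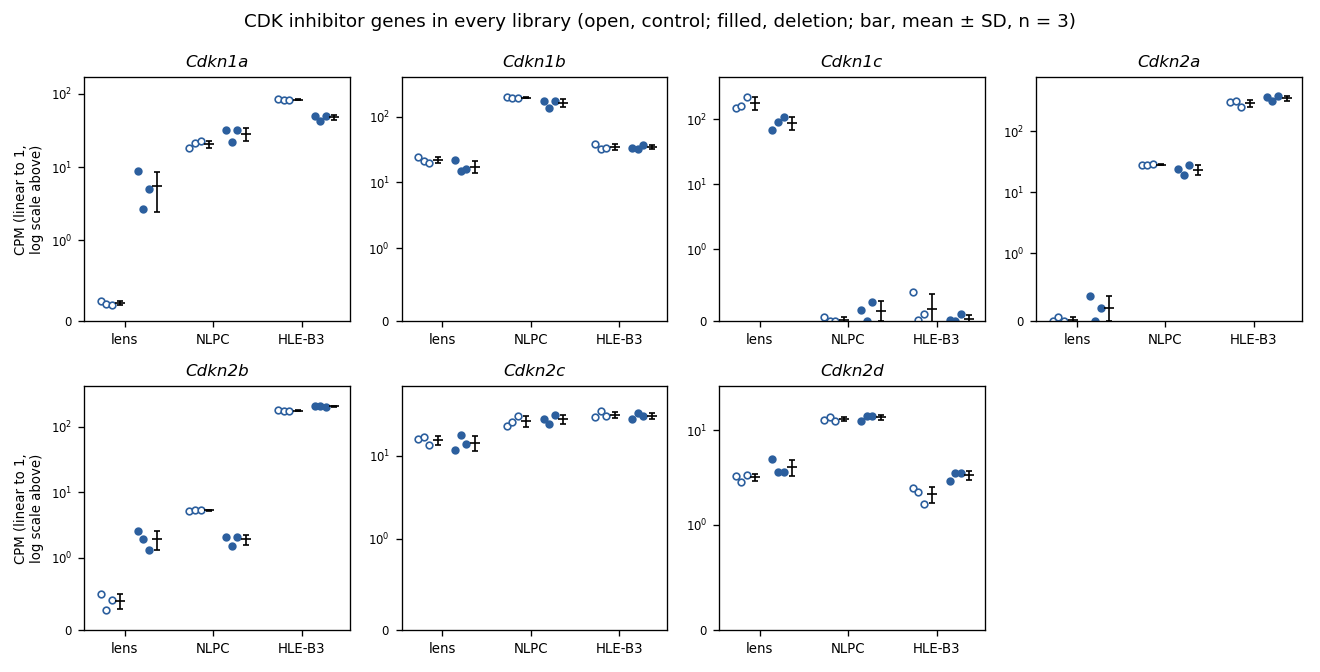
CPM of the 7 CDK inhibitor genes in each library (open points, control; filled points, deletion; bars, mean ± SD, n = 3), on an axis that is linear up to 1 CPM and logarithmic above. Cdkn1a is at or below 0.248 CPM in Ctrl lenses and at 2.70 to 8.76 CPM in Qk-iCKO lenses, and falls in QKI KO cells.

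The other genes of the pathway were taken as 3 lists by function. Of 19 other E2F, RB and DREAM/MuvB genes, 7 were lower (36.8%, against 5.96% of all genes) and 0 higher in NLPCs, with a median log2 fold change of -0.40 and 17 below 0. E2f5 was at 13.4, 10.9 and 12.5 CPM in WT and at 5.23, 5.01 and 5.17 CPM in the libraries labelled Qk-/- (-1.26 ± 0.15, adjusted p = 0.00201). Rbl1, p107, was at -1.10 (adjusted p = 0.0094), Rbbp4 at -0.50 (adjusted p = 0.00856), and Foxm1, Lin52, Tfdp1 and E2f6 were the other calls. With the replicate block 4 of these calls were left, those of E2f5, Rbl1, Rbbp4 and Foxm1. In the lens 1 of 16 tested was called (6.25% higher, against 8.38% of all genes), Tfdp2, an E2F partner, which rose from 5.54, 4.06 and 4.25 CPM to 16.5, 11.9 and 12.9 CPM (1.58 ± 0.20, adjusted p = 0.00378), and E2f2 and Foxm1 were at 1.15 and 0.82 without passing. In HLE-B3 cells 3 rose (E2F3 0.61, LIN54 0.47, MYBL2 0.25) and 4 fell, shares of 15.8% and 21.1% beside 17% and 16.3% of all genes, and those that fell included the 3 pocket protein genes RB1 (-0.58, adjusted p = 1.85e-06), RBL1 (-0.42) and RBL2 (-0.39).

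Of 36 other replication genes, 0 of 34 tested were called in the lens by edgeR or by DESeq2 (1 higher and 3 lower at an unadjusted p under 0.05), with the lowest p in Lig1 (0.88), Dut (-0.52) and Orc4 (-0.41). In NLPCs 1 rose, the single-strand binding protein gene Rpa1 (0.57, adjusted p = 0.00755), and 2 fell, Gins4 (-0.48) and Rfc1 (-0.37), shares of 2.78% and 5.56% beside 4.74% and 5.96% of all genes, with a list median of -0.32. In HLE-B3 cells 7 rose and 3 fell (19.4% and 8.33%, beside 17% and 16.3% of all genes), among them the licensing inhibitor gene GMNN (0.48) and the kinase activator gene DBF4 (0.49), which rose, and GINS4 (-0.70), which fell. Of 38 other mitosis genes, 0 of 29 tested were called in the lens by edgeR or by DESeq2 (1 at an unadjusted p under 0.05, Anln at 1.14). In NLPCs 0 rose and 4 fell (10.5%, against 5.96% of all genes), Dlgap5 (-0.61), Pttg1 (-0.85), Kif2c (-0.65) and Ect2 (-0.56), with a list median of -0.38 and 36 below 0. In HLE-B3 cells 7 rose and 8 fell, shares of 18.4% and 21.1% that lay near the 17% and 16.3% of all genes, and the lowest p were those of HMMR (-0.53), CKAP2 (-0.47) and NUF2 (0.68), with a list median of 0.01.

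Whether deletion had different effects in the lens and in NLPCs was tested in 1 fit of both mouse tables. The effect differed for 3 of the 50 members, against 8.53% of the 16699 genes tested, and for 9 at an unadjusted p under 0.05 (18%, against 23.7% of all genes). The differences, NLPC minus lens, were 1.16 ± 0.19 (adjusted p = 0.00276) for Ccnd1, -1.26 ± 0.21 (adjusted p = 0.0037) for Cdk2 and -1.46 ± 0.34 (adjusted p = 0.0194) for Rrm2. Over the members the median difference was -0.38, beside -0.02 for all genes, and 39 of 50 were below 0. These signs rest on the NLPC labels, which the whole-gene counts of Qk go against. Such counts do not show whether exon 2 was lost. Exchanging the labels turns the sign of the NLPC effects and does not test which labels are right. With the NLPC labels exchanged, 4 members differed (Ccnd2, Cdk6, Cdk2 and Bub3) against 16.1% of all genes, Ccnd1 and Rrm2 no longer passed (adjusted p = 0.0806 and 0.297), and the median difference was 0.39 with 11 of 50 below 0. Among the CDK inhibitors the effect differed for Cdkn1a (-4.11, adjusted p = 0.00129) and Cdkn2b (-3.68, adjusted p = 0.000897), of which Cdkn2b rose in the lens and fell in NLPCs, and in the opposite direction for Cdkn1c (3.78, adjusted p = 0.0331), which was at 0 to 0.27 CPM in NLPCs. Tfdp2 (-1.34), Rpa1 (0.99), Lig1 (-1.05) and Anln (-1.22) also differed. With the NLPC labels exchanged, Cdkn1a (-5.14, adjusted p = 0.000171) and Tfdp2 (-1.77, adjusted p = 0.000328) still differed. Cdkn2b (-0.86, adjusted p = 0.261), Lig1 (-0.67, adjusted p = 0.126) and Anln (-0.99, adjusted p = 0.0567) no longer passed. Nor did Cdkn1c (-1.72, adjusted p = 0.263) and Rpa1 (-0.27, adjusted p = 0.411), whose signs turned. E2f5, Tfdp1, Rbl1 and Lin52 passed only with the labels exchanged. Tissue, age, culture and depth differ between these systems along with the deletion and cannot be told apart. HLE-B3 cells are human and were not part of that fit. The log2 fold changes of cyclin D1 stood side by side at -0.80 in the lens, 0.27 in NLPCs and 1.45 in HLE-B3 cells, and those of Rrm2 at 0.49, -1.06 and 0.28.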

How the data were processed

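RNA-seq was measured in 18 libraries. The authors isolated RNA with DNase treatment, sequenced stranded paired-end libraries, aligned the reads with STAR 2.6.1b in 2 passes to mm10 or hg19 and extracted raw counts with HTSeq 0.11.0. The submitters' processing notes also list HISAT2 2.0.4 and featureCounts with no role, and the strand setting of the counting was not given in the sources used here. The deposited tables hold raw counts per gene, 1 table per system. The counting could split reads between genes that overlap.

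Each table was analysed on its own with edgeR 4.0.16 in R 4.3.3: filterByExpr (minimum count 10, minimum total 15), TMM, and the quasi-likelihood test without covariates, adjusted over all genes tested by the Benjamini-Hochberg method and called at adjusted p under 0.05. The unadjusted p is given beside it because the study used that threshold with DESeq2. CPM are TMM-scaled, and FPKM divide them by merged exon length (GRCm38 and GRCh37). The lens and NLPC tables were joined by symbol to test the interaction of system and deletion. The code was tested on simulated data. edgeR estimated a common biological coefficient of variation of 0.260 (lens), 0.411 (NLPC) and 0.168 (HLE-B3). An exact permutation test of a single gene cannot go under 0.1 with groups of 3.

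The members and lists were chosen with earlier results of these data known. Library values were printed for the 3 members of lowest p in each class and system, for Mki67, Top2a, Pcna, Mcm2 and Cdk1, and for the members with the lowest and highest log2 fold change. All CDK inhibitors, and the 3 genes of lowest p of each other list, were named, and other genes were named after their values were seen. Alternatives were other size factors, other count filters, DESeq2 1.42.0, a replicate block, a minimum change of 1.5-fold, leaving out each library and, in HLE-B3 cells, subtracting the 50 nearest genes. Exchanging the NLPC labels in the interaction was added after the data were seen. Replicate numbers come from the labels. Deviations of same-numbered libraries from their group means correlated at 0.133 to 0.523 in the lens and 0.123 to 0.320 in NLPCs. In HLE-B3 cells they correlated at -0.0495 to 0.0613, and the numbers do not pair the libraries there. Differently numbered libraries reached 0.279 in the lens and 0.232 in NLPCs, and not every library correlated best with its own number. A pairing by number is therefore not settled in these 2 systems. The reported p-values are without the block, and values with it are given where it changes a call. No libraries were duplicates. ChIP-seq data of the study were not used here.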

Additional observations from a re-analysis of the deposited data

Results flagged for a closer look

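Cyclin D1, Cdk2 and Rrm2 were marked because the effect of deletion differed between the lens and NLPCs by an interaction test in edgeR. The difference in log2 fold change, NLPC minus lens, was 1.16 for Ccnd1, which was lower in 3 of 3 Qk-iCKO lenses and overlapped with WT in NLPCs. It was -1.26 for Cdk2, which was higher in 3 of 3 Qk-iCKO lenses and overlapped with WT in NLPCs. It was -1.46 for Rrm2, which was lower in 3 of 3 NLPC libraries labelled Qk-/- and overlapped with Ctrl in the lens. Adjusted p was 0.00276, 0.0037 and 0.0194. The number of members that differed was 3 in this fit, 6 with DESeq2 and 5 without the first Qk-iCKO lens library. The whole-gene counts of Qk go against the NLPC labels, and exchanging these labels does not test which are right. With these labels exchanged the number of members that differed was 4, and Cdk2 alone of these 3 genes still differed (-0.98, adjusted p = 0.0092).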

How the results depend on the processing

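In the lens, scaling by total counts alone moved the median log2 fold change of all genes from 0.01 to 0.29 and the calls from 1023 higher and 473 lower to 768 and 118. It left 0 members called higher and 0 lower, with an S-phase median of 0.36 and Mki67 at 0.22, and testing every gene with at least 1 count gave 2 higher. Leaving out a library gave 0 to 1 higher and 0 to 1 lower, a mitotic median of -0.33 to 0.064, Mki67 at -0.22 to 0.067 and Mcm2 at -0.11 to 0.24, and an unadjusted p 2 and 2. Of all genes, 1904 were higher with every gene of at least 1 count, and 437 to 1298 were higher and 144 to 479 lower on leaving out a library. The calls of CDK inhibitors, 3 in the reported fit, were 1 with at least 10 counts in every library, which drops Cdkn1a and Cdkn2b, and 1 to 3 on leaving out a library.

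In NLPCs, the members called higher were 2 with RLE size factors, with at least 10 counts in every library, in DESeq2 and at an unadjusted p, 0 at a change of at least 1.5-fold, and 0 to 3 on leaving out a library. Among all genes, 1028 were higher with RLE size factors, 1262 with at least 10 counts in every library, 1890 in DESeq2 and 344 to 1728 on leaving out a library, against 965 in the reported fit. The members called lower were 6 with total counts, 20 with every gene of at least 1 count, 24 in DESeq2, 7 with the replicate block, 30 at an unadjusted p, 6 at 1.5-fold, and 0 to 21 on leaving out a library. The number of all genes called lower moved too, from 1214 to 891 with total counts, 1608 with every gene of at least 1 count and 1951 in DESeq2. It was 1040 with the replicate block and 337 to 2069 on leaving out a library. Calls of other replication genes were 1 with total counts, 5 with every gene of at least 1 count, 9 in DESeq2 and 0 to 9 on leaving out a library, and those of other mitosis genes 12, 12 and 0 to 19 in the last 3 of these. Calls of E2F, RB and DREAM/MuvB genes were 4 with the replicate block and 1 to 7 on leaving out a library, and those of CDK inhibitors 0 to 2.

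In HLE-B3 cells, the members called lower were 8 with total counts, 7 at an unadjusted p, 0 at 1.5-fold and 1 to 4 on leaving out a library, and 2 were higher at 1.5-fold. Among all genes, 3711 were lower with total counts and 2325 to 2902 on leaving out a library, against 3112 in the reported fit. The class medians were 0.024 and 0.055 with total counts, 0.14 and 0.15 less the 50 nearest genes, and 0.078 to 0.11 and 0.076 to 0.14 on leaving out a library (S-phase, then mitotic). Calls of CDK inhibitors were 2 to 4 and of other mitosis genes 9 to 16 on leaving out a library. Here the replicate block, whose numbers did not pair these libraries, gave 21 higher and 4 lower, losing CDC25C and gaining MKI67, and apart from the NLPC calls named in the report the block changed no other call of a member. Members whose effect differed between lens and NLPCs were 6 in DESeq2 and 2 to 5 on leaving out a library. The cause of these shifts was not tested. The alternatives for the lists of other pathway genes were added after the data were seen. Counts were low in the lens, where the median member had a mean of 29.2 counts per library. The part of counting in the SE of the members was not tested. Of the values under alternatives of the members whose library values were chosen for printing, those that changed sign were 7 of 169 over 13 members in the lens, all of them Mki67 or Mcm2, 0 of 156 over 13 in NLPCs and 0 of 182 over 14 in HLE-B3 cells. Over all 49 HLE-B3 members tested, 12 changed sign less the 50 nearest genes, among them the called CENPE, CDC25C and BUB1B.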

Other observations

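Across the members tested in both, the log2 fold changes of the lens and HLE-B3 cells had a Pearson correlation of -0.27 over 43 genes, with 19 of the same sign. Their Spearman correlation was -0.13. The Pearson correlation was 0.013 for the lens and NLPCs (22 of 44 of the same sign). For NLPCs and HLE-B3 cells it was 0.13 (15 of 49). Spearman correlations were -0.033 for the lens and NLPCs and -0.043 for NLPCs and HLE-B3 cells. Genes are not independent replicates, and these values are a description. In the Qk-iCKO lenses the endothelial markers summed to 11.98 to 22.8 CPM against 3.64 to 7.53 CPM in Ctrl, and the fibroblast and mural markers to 110.1 to 179 CPM against 77.3 to 105 CPM. The retina and pigment cell markers overlapped between the groups, at 15.2 to 174 CPM against 4.73 to 275 CPM.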
